A study of Mus musculus with 6 samples.

Results

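The mouse mitochondrial genome is a small circular chromosome whose genes were followed here in AML12, a hepatocyte line from an animal transgenic for human TGF alpha. Cells received scrambled RNA (siNC, n = 3) or an siRNA against the histone methyltransferase gene Setdb1 (siSetdb1, n = 3), and RNA was taken 72 h later. All 6 samples come from this 1 line, and both groups passed through the same transfection. Whether replicates were grown apart is not stated. The p-values here set the difference between groups against the scatter of these samples alone, which may be technical. The members are the rows of the deposited table whose gene name starts with mt-, which are 16 of 25416 genes, with 13 protein-coding genes, 2 ribosomal RNA genes and 1 transfer RNA gene. GENCODE M21 annotates 37 genes on this chromosome, and the other 21, all transfer RNA genes, were not analysed here.

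Mitochondrial DNA is copied and transcribed inside the organelle by nuclear-encoded enzymes. Both strands are read as long precursors, from which transfer RNAs are cut out and so set free the messenger and ribosomal RNAs between them. The messengers encode core subunits of respiratory complexes I, III and IV and of the ATP synthase, which in a hepatocyte supply the ATP for synthesis and detoxification. All other subunits of these complexes come from nuclear genes. Most mitochondrial messengers receive a poly(A) tail, and in some this tail completes the stop codon.

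Libraries held 16790582 to 17835060 reads, recovered from the deposited values. Setdb1 had 8.41 to 9.43 FPKM in siNC and 3.29 to 4.29 FPKM in siSetdb1 (FPKM, reads scaled to exon length and to the size of the library). Of 12 hepatocyte markers 10 were listed, among which Hnf4a had 34.7 and 29.9 FPKM and Alb 7.93 and 2.61 FPKM (means of siNC and siSetdb1), while Tat, Cps1 and Serpina1a had group means under 0.1 FPKM. Of the 7 tested Trf and Ttr fell (limma adjusted p = 0.00817 and 0.0247). Of 3 listed biliary or progenitor markers Krt7 rose from 154.5 to 218.4 FPKM and Sox9 from 4.95 to 9.26 FPKM, while Krt19 had 1300 and 1353 FPKM. Of 3 macrophage markers Cd68, which many cell types also carry in lysosomes, fell from 5.27 to 2.49 FPKM. Csf1r had 0.152 and 0.0794 FPKM, lower in each siSetdb1 library, and Ptprc had at most 0.01 FPKM. Of 3 endothelial markers Cdh5 had 0.0466 and 0.132 FPKM, higher in each siSetdb1 library, and Pecam1 and Kdr had at most 0.01 FPKM as group means. Of 3 fibroblast or stellate markers Col1a1 had 0.148 and 0.231 FPKM and Des 0.472 and 0.742 FPKM, both higher in each siSetdb1 library (Des adjusted p = 0.193, Col1a1 under the filter on low values), and Pdgfrb had 0.0106 and 0 FPKM. The part of these markers in the values of the mitochondrial genes was not tested. In bulk RNA, fewer cells of a type and less RNA per cell cannot be told apart, and an FPKM value is relative to the rest of the library.

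The sequences that bear on the values come first. Nuclear chromosomes carry copies of mitochondrial DNA, and a read of 50 bases that fits both the organelle gene and a copy cannot be placed by its letters. Each member was therefore cut into all windows of 50 bases and each window was looked up, on both strands, in all other GENCODE M21 transcripts. A stretch of mt-Co2, a subunit of cytochrome c oxidase (complex IV), shows the case. Bases 445 to 504 of the gene were the 60 bases with the most differences from its chromosome 2 copy Gm13341 (5 to 3 prime, genes of mm10; capitals mark the bases at which Gm13341 differs).

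mt-Co2: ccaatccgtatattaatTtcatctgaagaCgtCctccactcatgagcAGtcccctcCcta
Gm28661: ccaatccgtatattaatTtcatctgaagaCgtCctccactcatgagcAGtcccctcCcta
Gm13341: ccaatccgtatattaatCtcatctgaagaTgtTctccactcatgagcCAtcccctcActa

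The chromosome 1 copy Gm28661 had no mismatch to mt-Co2 over 681 aligned bases, and Gm13341 had 16 mismatches over 672. All 635 windows of mt-Co2 occurred in another transcript, 632 of them in Gm28661 and 224 in Gm13341. Gm28661 is 1 of 7 unprocessed pseudogenes that lie side by side on chromosome 1 between 24611535 and 24616197 (mm10, minus strand), a run of 4663 bases in the order of the mitochondrial genes from the end of mt-Co1 to the first part of mt-Nd4. Gm10925 matched 678 bases of mt-Atp6, Gm28437 matched 783 bases of mt-Co3, Gm10222 matched 294 bases of mt-Nd4l and Gm28439 matched 876 bases of mt-Nd4, each without a mismatch. Gm28438 differed from mt-Nd3 at 1 base of 345, T3C (the gene's base first, counted from the first base of mt-Nd3), which is shown in capitals.

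mt-Nd3: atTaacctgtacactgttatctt
Gm28438: atCaacctgtacactgttatctt

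Of the 16 members, 5 had fewer than 10 windows of their own: mt-Co2 with 0, mt-Co3 with 1, mt-Atp6 and mt-Nd4l with 3 each and mt-Nd3 with 6. In mt-Nd4 62.2% of windows were shared and in mt-Co1 51.1%, 430 of them with Gm29216 on chromosome 1 and 411 with Gm13340 on chromosome 2. In mt-Nd2, mt-Nd5 and mt-Rnr2 the shares were 8.19%, 7.61% and 1.04%. The other members, mt-Nd1, mt-Nd6, mt-Cytb, mt-Rnr1, mt-Tp and mt-Atp8, shared no window with any other annotated transcript.

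Levels of the members had the same order in all 6 libraries except among mt-Rnr1, mt-Rnr2 and mt-Nd6. The highest was mt-Co1, the catalytic subunit of complex IV, at 11630, 12830 and 12720 FPKM in siNC and 11920, 12120 and 12530 FPKM in siSetdb1. Next came mt-Nd1 of complex I with 6820, 7343 and 7182 FPKM against 6337, 7607 and 7246 FPKM, and mt-Cytb of complex III with 3635, 4652 and 4504 FPKM against 4395, 4852 and 4612 FPKM. These 3 genes did not overlap in level with each other or with any member below them. The complex I gene mt-Nd2 followed at 2316 to 2991 FPKM over all 6 libraries. The complex I genes mt-Nd5 (1491 to 2016 FPKM) and mt-Nd4 (1398 to 1803 FPKM) overlapped with each other, as did the ribosomal RNA genes mt-Rnr2 (925 to 1724 FPKM) and mt-Rnr1 (1162 to 1465 FPKM) and the complex I gene mt-Nd6 (948 to 1400 FPKM).

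**Figure D1:**
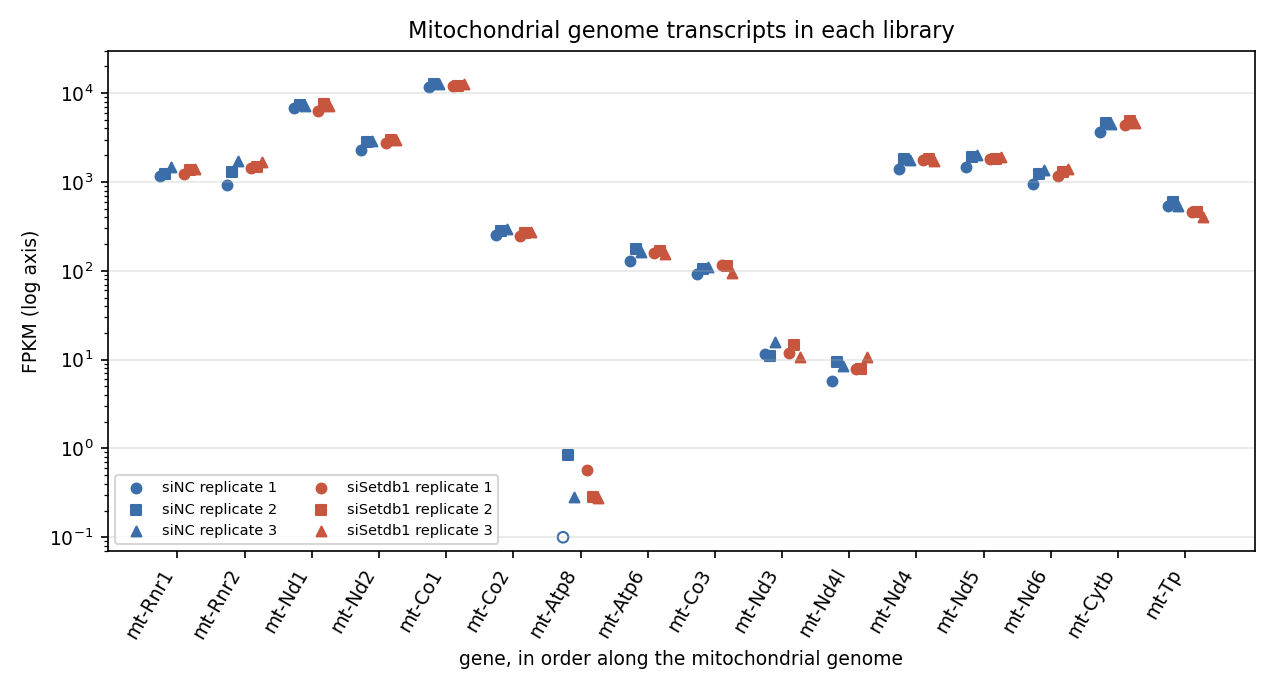
FPKM of the 16 members on a log axis, in order along the mitochondrial genome, with 1 point per library (siNC blue, siSetdb1 red; circle, square and triangle are replicates 1, 2 and 3; the open circle stands for mt-Atp8 at 0 in siNC replicate 1). mt-Co2 to mt-Nd4l lie at 291.7 FPKM or below in every library, between mt-Co1 and mt-Nd4, which are above 1000 FPKM.

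The 6 genes that lie between mt-Co1 and mt-Nd4 were far lower than their neighbours. mt-Co2 had 249.8 to 291.7 FPKM, mt-Atp6 of the ATP synthase 129.8 to 173.7 FPKM and mt-Co3 of complex IV 91.5 to 115.4 FPKM. The complex I genes mt-Nd3 and mt-Nd4l had 10.8 to 15.9 FPKM and 5.82 to 10.8 FPKM, from 67 to 95 and 29 to 57 reads. mt-Atp8, the short ATP synthase subunit whose reading frame overlaps mt-Atp6 by 43 bases, had 0, 3 and 1 reads in siNC and 2, 1 and 1 in siSetdb1. Of these genes, mt-Co2, mt-Atp6, mt-Co3, mt-Nd3 and mt-Nd4l are the 5 with fewer than 10 windows of their own. mt-Atp8 is the exception, with 155 windows and none in another annotated transcript, but the copies of its neighbours on chromosome 1, Gm10925 and Gm28661, leave 233 bases between them in which no copy of mt-Atp8 is annotated, and the genomic sequence there was not analysed here. How the authors treated reads that fit several places is not given in the sources used here, so these 6 values are uncertain as levels of the messengers.

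The deposited table also lists the pseudogenes, some near the level of their gene and others far below it. Gm28661 had a mean of 138.4 FPKM over the 6 libraries against 267.8 for mt-Co2, Gm10925 had 223.9 against 158.0 for mt-Atp6, Gm28437 had 125.8 against 104.9 for mt-Co3 and Gm28438 had 19.2 against 12.6 for mt-Nd3. Gm10222 had 6.00 against 8.33 for mt-Nd4l. Gm28439, the copy of part of mt-Nd4, had 35.7 FPKM against 1705 for the gene, and Gm29216 and Gm13340 had 169.9 and 10.5 against 12290 for mt-Co1. Gm13341 had 0.664 against 267.8 for mt-Co2, and Gm13339 had 0.302 against 2788 for mt-Nd2. Of 10 pseudogenes of this kind, 9 passed the filter on low values and none was called between the groups (smallest adjusted p = 0.155, limma, and 1 with an unadjusted p under 0.05).

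**Figure D2:**
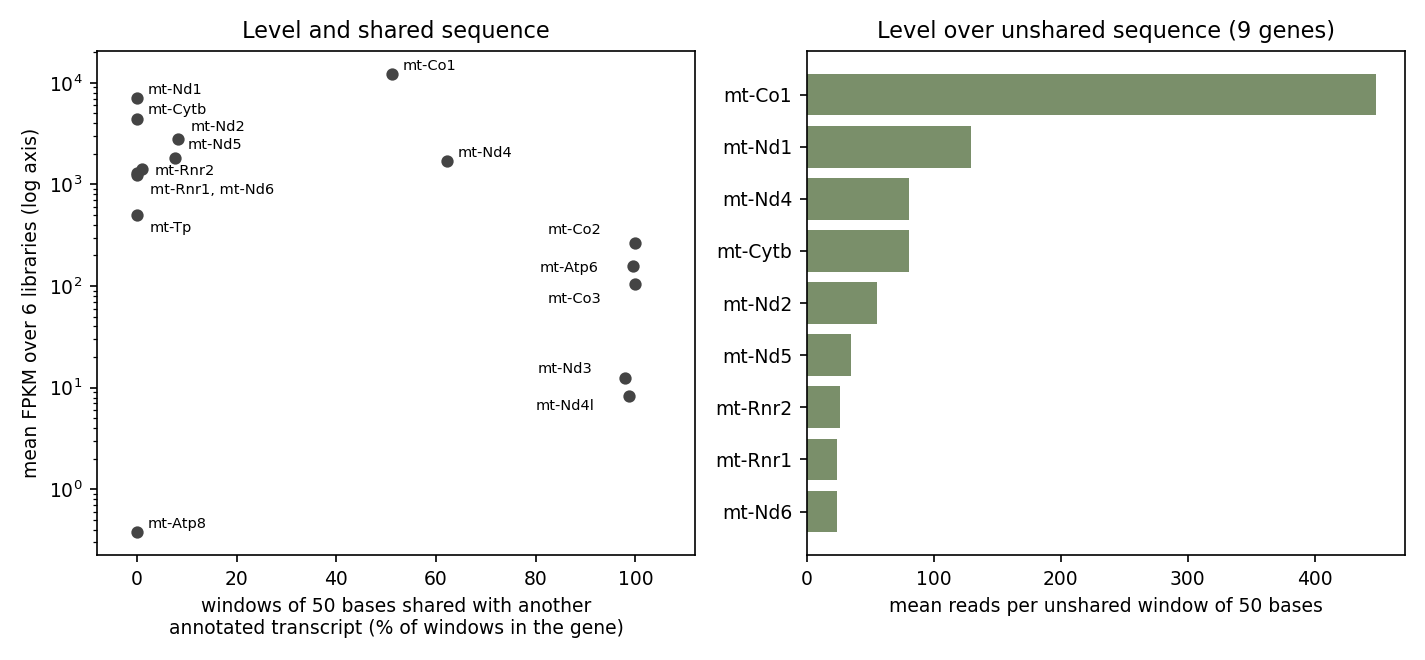
Left, mean FPKM of each member over 6 libraries (log axis) against the percent of its windows of 50 bases that occur in another annotated transcript; right, mean reads per unshared window for the 9 members with at least 50 such windows and more than a few reads. The 5 members at 98 to 100% shared lie at 267.8 FPKM or below, and mt-Atp8 lies lowest with 0% shared.

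Dividing reads by unshared windows changed the order of the members in 1 place. mt-Co1 had 448.6 reads per unshared window as a mean of the 6 libraries, mt-Nd1 129, mt-Nd4 80.8, mt-Cytb 80.2, mt-Nd2 55.1 and mt-Nd5 35.1. On this scale mt-Nd4 stood beside mt-Cytb, while its FPKM was below that of mt-Nd5. The ribosomal RNAs mt-Rnr2 and mt-Rnr1 had 25.8 and 23.7 and mt-Nd6 had 23.5. The scale takes all reads of a gene to come from its unshared windows, which the deposited values cannot show.

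Features of the reference sequence separated mt-Nd6 from the other messengers. It is the only one annotated on the minus strand of the reference. Genes annotated there are called light-strand genes here, and those on the plus strand heavy-strand genes. Of the bases of mt-Nd6 5.97% were C, against 22.1% to 29.97% in the other 12. G and C together made up 31.9% of mt-Atp8 and 41.1% of mt-Nd4l, the lowest and highest among the 13 messengers. The annotated reading frames of mt-Co3, mt-Nd4 and mt-Cytb end 1 base into an incomplete stop codon, and the other 10 end with a full one. RNA was selected with oligo(dT) and no strand-specific step is described, which means that reads of mt-Nd6 and antisense RNA from the heavy strand cannot be told apart, and 14 bases of mt-Nd6 are also part of mt-Nd5.

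Between siSetdb1 and siNC, the mitochondrial messengers and ribosomal RNAs differed by less than the test could call. Of 16 members 15 passed the filter on low values (0.5 FPKM in 3 libraries), all but mt-Atp8, and of these none rose, 1 fell and 14 did not pass (limma on log2(FPKM + 1), adjusted p under 0.05). Among all 12846 genes tested 6.87% were called higher and 8.27% lower, so a single call among 15 is near the background. The median log2 fold change of the 15 was 0.05, and that of all genes tested -0.02. Of the 15 estimates 10 lay above 0 and 5 below, and with values scaled to the FPKM outside the mitochondrial genome 14 lay above and 1 below.

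For complex I, mt-Nd1 had means of 7115 ± 268 FPKM in siNC and 7063 ± 654 FPKM in siSetdb1 (SD, n = 3), a log2 fold change of -0.01 with a 95% interval of -0.22 to 0.19. mt-Nd2 had 2675 ± 320 and 2902 ± 125 FPKM (0.12, interval -0.11 to 0.36). mt-Nd6 had 948, 1221 and 1355 FPKM against 1169, 1302 and 1400 FPKM (0.15, interval -0.17 to 0.47). The groups overlapped in these genes, as in mt-Nd4 and mt-Nd5, whose log2 fold changes were 0.08 and 0.04. For complex III, mt-Cytb had 4264 ± 549 and 4619 ± 228 FPKM (0.12, interval -0.13 to 0.37).

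For complex IV, mt-Co1 had 12390 ± 664 and 12190 ± 314 FPKM, and its interval, -0.20 to 0.15 on the log2 scale, was the narrowest of the 15. mt-Co2 and mt-Co3 had log2 fold changes of -0.06 and 0.07, and mt-Atp6 of the ATP synthase had 0.05. The low members mt-Nd3 and mt-Nd4l had -0.04 (interval -0.40 to 0.32) and 0.16 (interval -0.26 to 0.58). For these 2 genes counting error alone is 11.5% and 15.3% of the level per library, whereas for mt-Co1 it is 0.17%.

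The ribosomal RNA genes encode the small (mt-Rnr1) and large (mt-Rnr2) subunit RNAs of the mitochondrial ribosome. mt-Rnr2 had 925, 1290 and 1724 FPKM in siNC and 1441, 1492 and 1691 FPKM in siSetdb1, so that the siNC libraries alone covered the whole range of the other group. Its log2 fold change of 0.27 had the widest interval of the 15, -0.21 to 0.76. mt-Rnr1 had 1162, 1221 and 1465 FPKM against 1217, 1351 and 1395 FPKM, with a log2 fold change of 0.05. The ratio of mt-Rnr2 to mt-Rnr1 was 0.80, 1.06 and 1.18 in siNC and 1.18, 1.11 and 1.21 in siSetdb1.

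1 control library stood apart. siNC replicate 1 was the lowest of the 6 libraries for 11 of the 15 members, while it was the lowest for 26.2% of all genes tested. Its level was between 61.4% (mt-Rnr2) and 95.98% (mt-Tp) of the mean of siNC replicates 2 and 3. Without this library 11 of 15 estimates lay below 0, the median of the 15 became -0.04, and the log2 fold changes of mt-Nd2, mt-Nd6, mt-Cytb and mt-Rnr2 became 0.02, 0.00, 0.01 and 0.04. The part of this library's preparation in these differences was not tested.

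**Figure D3:**
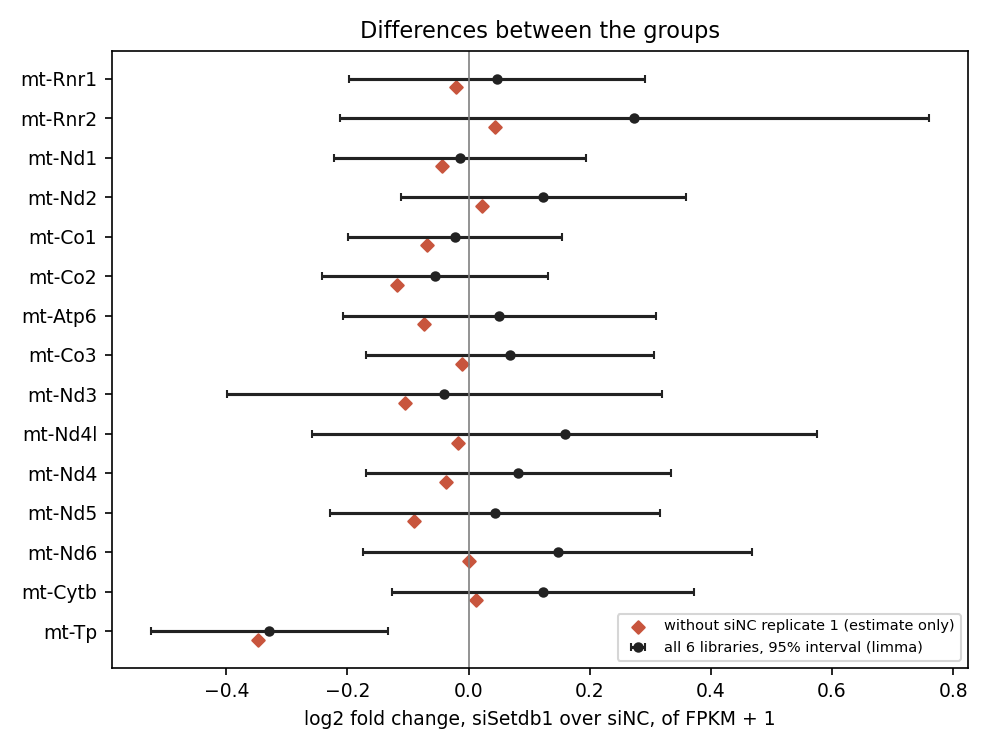
For the 15 members tested, the siSetdb1 minus siNC difference in log2(FPKM + 1) (black, with 95% intervals from limma) and the estimate without siNC replicate 1 (red diamonds). The interval of mt-Tp alone lies below 0, and 11 of the 15 red diamonds are below 0.

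mt-Tp was the only member called. It encodes the mitochondrial transfer RNA for proline (ENSMUSG00000064372) and is annotated on the minus strand at positions 15356 to 15422 of the mitochondrial chromosome (mm10), after the oppositely oriented mt-Tt and next to the noncoding control region. Its 67 bases are given 5 to 3 prime, with the anticodon, bases 31 to 33, in capitals, as found inside a stem of 5 pairs with a loop of 7 bases.

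mt-Tp: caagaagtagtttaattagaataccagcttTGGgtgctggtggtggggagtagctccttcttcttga

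mt-Tp had 540.5, 591.8 and 534.3 FPKM in siNC and 462.2, 462.5 and 402.5 FPKM in siSetdb1, from 608, 690 and 615 and from 535, 529 and 481 reads. Every siSetdb1 library was below every siNC library, which held in the same direction for 21.6% of all genes tested. The mean fell from 555.5 ± 31.6 to 442.4 ± 34.5 FPKM, a log2 fold change of -0.33 (SE 0.08, interval -0.52 to -0.13, limma adjusted p = 0.0388). As a percent of the FPKM of mt-Cytb, the messenger on the other side of mt-Tt, it was 14.9, 12.7 and 11.9 in siNC and 10.5, 9.53 and 8.73 in siSetdb1. Dropping any 1 library other than siNC replicate 1 ended the call (limma adjusted p = 0.0568 to 0.116), as did median-ratio scaling (0.0542), scaling to the FPKM outside the mitochondrial genome (0.111) and no filter (0.091), whereas without siNC replicate 1 it held (0.0384). Transfer RNAs carry no poly(A) tail, no strand-specific step is described, and a gene of 67 bases holds only 18 windows of a read's length, so reads from the mature transfer RNA, from its precursor and from the opposite strand cannot be told apart.

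The composition of the mitochondrial messengers was compared next. Their sum holds the values of mt-Co2, mt-Atp8, mt-Atp6, mt-Co3, mt-Nd3 and mt-Nd4l, which are uncertain as levels of the messengers. In mt-Co1 and mt-Nd4, 51.1% and 62.2% of windows were shared with another annotated transcript, so the percentages below carry the same limit. mt-Co1 made up 40.5%, 38.7% and 38.5% of the summed FPKM of the 13 messengers in siNC and 38.8%, 36.7% and 38.1% in siSetdb1, and mt-Nd1 22.5% ± 1.1 and 21.9% ± 1.2. Relative to this sum the groups did not overlap for 3 of the 15 members tested. mt-Nd2 was higher in siSetdb1, with 8.06%, 8.40% and 8.85% against 8.99%, 8.95% and 9.08%. mt-Co2 was lower, with 0.870%, 0.839% and 0.882% against 0.813%, 0.806% and 0.825%, and so was mt-Tp, at 1.76% ± 0.13 against 1.38% ± 0.14. Among all genes tested, 13.6% lay higher and 19% lower without overlap on this scale, so the counts of 1 and 2 are near the background.

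The 2 light-strand genes, mt-Nd6 and mt-Tp, were set against the heavy strand. The log2 ratio of their summed FPKM to that of the 14 heavy-strand genes was -4.33, -4.25 and -4.21 in siNC and -4.30, -4.29 and -4.26 in siSetdb1. The groups overlapped, and the difference of the means was -0.03. With mt-Nd6 alone against the 12 heavy-strand messengers the difference was 0.12, also with overlap.

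Members together took up 657200 to 814200 reads per library. This was 3.91%, 4.53% and 4.61% of reads in siNC and 4.255%, 4.515% and 4.565% in siSetdb1. Of the summed FPKM, in which reads are divided by exon length, they held 8.795%, 10.48% and 10.78% in siNC and 10.44%, 11.05% and 10.91% in siSetdb1. The difference of the FPKM shares, 0.78 percentage points, was within the SD of siNC (1.07), and without siNC replicate 1 it was 0.17. For the shares of reads the difference was 0.09 percentage points, and without siNC replicate 1 it turned to -0.13.

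Among nuclear genes for oxidative phosphorylation, 17 of 80 tested fell, 1 rose and 62 did not pass. The summed FPKM of the 84 listed genes, 4 of them for complex II, was 6137, 5642 and 5327 in siNC and 4601, 4780 and 4891 in siSetdb1, without overlap, while that of the 13 mitochondrial messengers was 28730, 33130 and 33080 against 30690, 33010 and 32940. The mitochondrial sum holds the uncertain values of mt-Co2 to mt-Nd4l. The log2 ratio of the mitochondrial to the nuclear sum was 2.23, 2.55 and 2.64 in siNC and 2.74, 2.79 and 2.75 in siSetdb1, higher in each siSetdb1 library. Its difference of 0.29 became 0.16 without siNC replicate 1, and with 3 libraries a group no exact permutation test can go below p = 0.1. The 17 that fell were 21.25% of those tested, against 8.27% of all genes called lower, and the median log2 fold change of the 80 was -0.24, or -0.15 with values scaled to the FPKM outside the mitochondrial genome. Without siSetdb1 replicates 1 and 2 and siNC replicate 2 the number that fell was 2, 3 and 7 of 80 (2.5%, 3.75% and 8.75%), where 2.54%, 2.55% and 4.47% of all genes were called lower in the same fits. Sdhd, the membrane anchor subunit of complex II, which holds no mitochondrial gene product, fell in siSetdb1 libraries to 36.5, 34.6 and 37.0 FPKM, where siNC libraries had 74.7, 72.2 and 68.1 FPKM, a log2 fold change of -0.97 (SE 0.07, limma adjusted p = 0.000692). The complex III gene Uqcr10 fell by 0.54, and the complex I genes Ndufa7 and Ndufa1 fell by 0.41 and 0.38. Of the ATP synthase, Atp5k, Atp5h, Atp5c1 and Atp5j2 fell by 0.45, 0.40, 0.38 and 0.36. Cox4i2, an alternative subunit of complex IV, had 0.454, 0.438 and 0.517 FPKM in siNC and 1.03, 0.966 and 0.996 FPKM in siSetdb1, on 6 to 14 reads per library. It passed the filter on low values only through siSetdb1, so its call supports no statement, and no gene of the list rose with limma-voom, a variance trend on reads or a filter at 1 FPKM. No p-value is given for the difference between the mitochondrial and nuclear sums, and its cause was not tested.

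**Figure D4:**
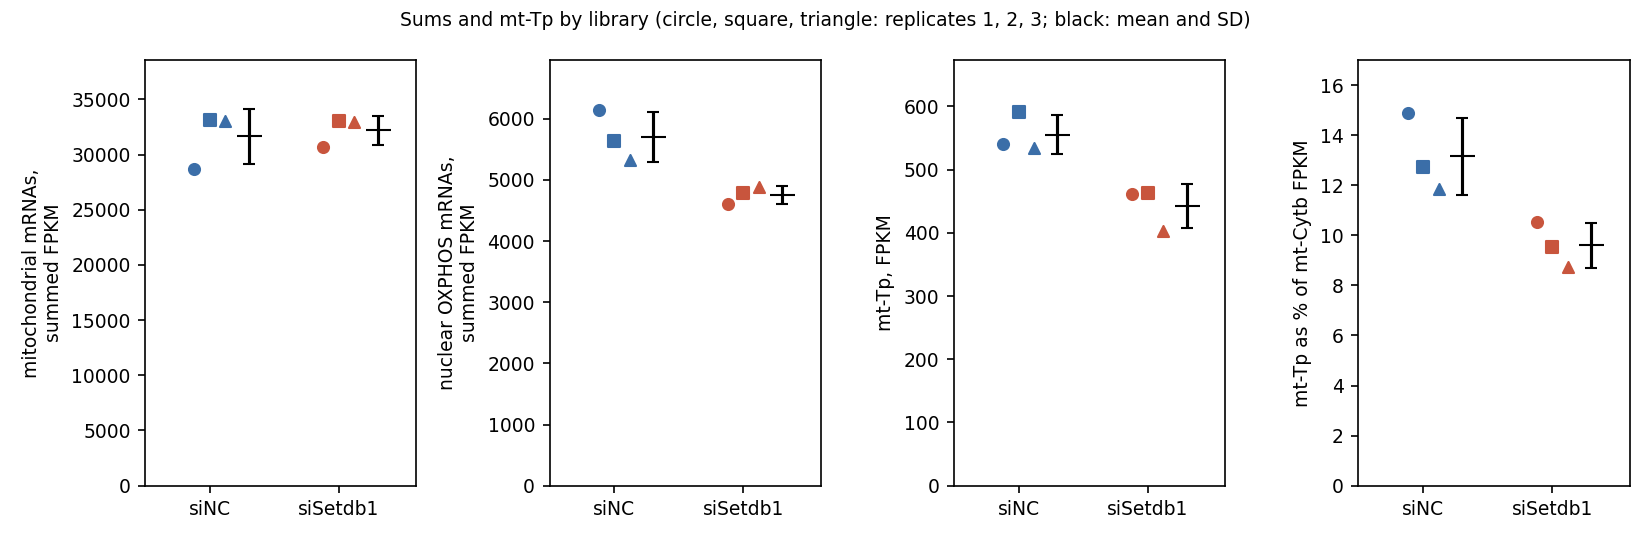
From left to right, the summed FPKM of the 13 mitochondrial messengers, that of 84 nuclear oxidative phosphorylation genes, the FPKM of mt-Tp, and mt-Tp as a percent of mt-Cytb, with 1 point per library and the mean and SD of each group (n = 3) in black; the axes start at 0. The groups overlap in the first panel and do not in the other three.

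Nuclear genes for mitochondrial transcription, RNA handling and DNA maintenance were mostly uncalled. Of 48 listed genes 44 were tested, none rose, 2 fell (4.55%, against 8.27% of all genes) and 42 did not pass, with a median log2 fold change of -0.0012. Hsd17b10, a subunit of the mitochondrial RNase P that cuts transfer RNAs from precursors, had 70.4, 56.5 and 67.95 FPKM in siNC and 45.4, 43.9 and 54.0 FPKM in siSetdb1, and fell by 0.44 (limma adjusted p = 0.039). The other listed subunit genes of this enzyme did not fall. Trmt10c had 6.18 and 7.75 FPKM (means of siNC and siSetdb1), higher without overlap (limma adjusted p = 0.131), and was called higher without siNC replicate 3. Prorp had 2.98 and 3.29 FPKM, with overlap (adjusted p = 0.482). Esrra, a nuclear receptor that induces genes of respiration, fell by 0.61 (adjusted p = 0.00825) and was called under every setting tried. The call of Hsd17b10 was lost without siNC replicate 1 or 3 or siSetdb1 replicate 1 or 2, with no filter, and with either other scaling. Of the 44 genes, 9 had every siSetdb1 library above every siNC library and 4 had every one below, which held for 17.6% and 21.6% of all genes tested. Among the 9, Angel2 had 8.89 ± 0.75 and 11.4 ± 1.0 FPKM and did not pass (limma adjusted p = 0.0535). It was called higher with a filter at 1 FPKM, with either other scaling, with limma-voom and with a variance trend on reads. The core factors given next were chosen for their roles after their values were seen, and none passed the test. Ppargc1a, a coactivator of genes of respiration, had 0.768, 1.01 and 1.57 FPKM in siNC and 0.465, 0.418 and 0.578 FPKM in siSetdb1, without overlap (limma adjusted p = 0.0599). It was called with limma-voom, with a variance trend on reads and without siNC replicate 1. It passed the filter on low values only through siNC, so its calls support no statement. Tfb1m, which methylates the small ribosomal RNA, had 3.78 ± 0.05 and 2.89 ± 0.48 FPKM, also lower without overlap. Higher without overlap were the transcription factor gene Tfb2m (9.34 ± 0.89 and 11.1 ± 0.6 FPKM), the elongation factor gene Tefm (6.32 ± 0.28 and 7.75 ± 0.58 FPKM) and the topoisomerase gene Top1mt (4.12 ± 0.64 and 5.22 ± 0.05 FPKM), with adjusted p from 0.0638 to 0.106. Pprc1 was also higher without overlap (16.1 and 18.9 FPKM, limma adjusted p = 0.0846). With scaling to the FPKM outside the mitochondrial genome, Tefm, Top1mt and Pprc1 were called higher, and Tfb2m was not. The RNA polymerase gene Polrmt had 6.24 ± 0.68 and 5.51 ± 0.54 FPKM (adjusted p = 0.33), Tfam, which packs and activates mitochondrial DNA, 10.1 ± 0.9 and 10.1 ± 0.4 FPKM, and Lrpprc, which protects mitochondrial messengers, 11.4 ± 1.1 and 10.8 ± 0.8 FPKM. The interval of Tfam was -0.18 to 0.19 on the log2 scale, that of Lrpprc -0.28 to 0.14.

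Of 48 nuclear genes for charging and modifying mitochondrial transfer RNAs and for translation, all were tested, 2 rose, 2 fell (4.17% each, against 6.87% and 8.27% of all genes) and 44 did not pass. Every siSetdb1 library was below every siNC library for 18 of the 48 and above for 2. This held for 21.6% and 17.6% of all genes tested. The median log2 fold change was -0.06, with 31 estimates below 0 and 17 above. Lars2, which charges the leucine transfer RNAs, had 12.5, 12.02 and 12.4 FPKM in siNC and 6.93, 7.51 and 7.30 FPKM in siSetdb1, and fell by 0.69 on the log2 scale (SE 0.07, limma adjusted p = 0.00151). Mrm2, which methylates the large ribosomal RNA, fell by 0.74, with 4.04 ± 0.61 FPKM in siNC and 2.01 ± 0.05 FPKM in siSetdb1 (adjusted p = 0.00494). Nars2, which charges the asparagine transfer RNA, rose from 5.95 ± 0.11 to 9.22 ± 0.68 FPKM (0.55, adjusted p = 0.00468). Nsun3, which modifies the anticodon of the methionine transfer RNA, rose from 3.03 ± 0.37 to 4.11 ± 0.24 FPKM (0.35, adjusted p = 0.0436), a call that was lost without any 1 of the 6 libraries. Lars2, Mrm2 and Nars2 were called under every setting tried. Pars2, which charges the proline transfer RNA that mt-Tp encodes and is named for that role, had 1.83 ± 0.17 and 1.31 ± 0.17 FPKM and did not pass (adjusted p = 0.0751).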

How the data were processed

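Polyadenylated RNA of 6 AML12 samples was sequenced as single reads of 50 bases on a BGIseq500, per the labels' protocols. Per the submitters' processing notes, RSEM 1.2.12, DESeq2 1.4.5, Bowtie2 2.2.5 and HISAT2 2.0.4 and the build mm10 were used, in roles that are not given. The deposited values, made by the authors, are FPKM: with GENCODE M21 exon lengths (GRCm38) they gave whole reads (tolerance 0.01) for 98.64% of genes and for all 16 members. Genes with at least 0.5 FPKM in 3 libraries (12846) were tested with limma 3.58.1 (R 4.3.3) after taking log2(FPKM + 1) (trended, robust prior variance, two-sided, Benjamini-Hochberg over all genes tested). The procedure was also run on simulated reads. These had the same spread setting for every gene and no outlying library, so the run does not show how the test performs on the present libraries. FPKM is relative to each library's total, and reads fitting several places depend on an unstated rule. Alternatives were another pseudocount, filters, 2 other scalings, limma-voom on recovered reads, a variance trend on reads, a replicate block and leaving out each library. Sums over members carry no p-value. Windows were searched in GENCODE M21 transcripts with Python 3.11.15 and aligned with Biopython 1.88. Every member was to be named, and of each nuclear list the called genes with the largest changes. Members, lists and alternatives were chosen with earlier results of these data known. Samples were grouped by title.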

Additional observations from a re-analysis of the deposited data

How the results depend on the processing

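The call of mt-Tp depended on the setting. Its adjusted p by limma was 0.0388, with a range of 0.0279 to 0.116 over the alternatives, and the number of members that fell was 0 with no filter, with median-ratio scaling, with scaling to the FPKM outside the mitochondrial genome and with the replicate block, and 0 to 1 when 1 library was left out. Whether replicate numbers pair the samples cannot be told from these values. The correlations of deviations for numbers 1, 2 and 3 were -0.16, 0.17 and -0.17, and those between unlike numbers lay from -0.20 to 0.28. Deviations from the mean of a group of 3 sum to 0, so these correlations cannot exclude a pairing. With the block, 1015 of 12846 genes were called in place of 1945, of which 480 rose and 535 fell (4.17% of those tested). There mt-Tp had an adjusted p of 0.0611 by limma. Of the nuclear lists, 6 oxidative phosphorylation genes fell (7.5%) and 0 rose, and 1 translation gene rose.

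Signs of uncalled members turned in several settings. With scaling to the FPKM outside the mitochondrial genome, which moved the median of all genes from -0.02 to 0.06, mt-Co1, mt-Nd1, mt-Nd3 and mt-Co2 had log2 fold changes of 0.0711, 0.0797, 0.0467 and 0.0378. With median-ratio scaling mt-Co1 and mt-Nd1 had 0.0038 and 0.0124. With 1 library left out, log2 fold changes ranged from -0.0679 to 0.0031 for mt-Co1, -0.0698 to 0.062 for mt-Nd1, -0.151 to 0.114 for mt-Nd3, -0.0183 to 0.279 for mt-Nd4l, -0.0743 to 0.135 for mt-Atp6, -0.0102 to 0.153 for mt-Co3, -0.0895 to 0.128 for mt-Nd5, -0.0378 to 0.146 for mt-Nd4 and -0.0208 to 0.146 for mt-Rnr1. The lowest of these came without siNC replicate 1, except for mt-Nd1 and mt-Nd3, where it came without siSetdb1 replicate 2.

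Of the RNA and DNA machinery, 1 gene fell with no filter and with each of the other scalings. The number that rose was 1 with a filter at 1 FPKM, median-ratio scaling, limma-voom on recovered reads or a variance trend on reads. In these fits 875 of 11473, 997 of 12832, 1020 of 12681 and 1016 of 12846 genes rose. With scaling outside the mitochondrial genome 4 rose, where 1351 of 12841 genes tested rose. With 1 library left out, 1 to 3 fell and 0 to 1 rose, where 326 to 1075 of 12846 genes fell and 355 to 1101 rose. Of the translation genes 1 rose with no filter, where 460 of 25416 genes rose. With 1 library left out, 2 to 3 of them fell and 1 to 2 rose. The nuclear oxidative phosphorylation genes that fell were 7 with no filter (8.33%), 11 with median-ratio scaling (13.75%) and 8 with scaling outside the mitochondrial genome (10%). Of all genes, 1.69%, 6.59% and 5.43% fell in the same fits. With 1 library left out 2 to 19 fell (2.5% to 23.75%), where 2.54% to 8.37% of all genes fell. With a filter at 1 FPKM, limma-voom or the trend on reads 0 rose, and with 1 library left out 0 to 1 rose. The difference of the light-strand to heavy-strand log2 ratio, -0.03, was 0.0911 on recovered reads and 0.12 for mt-Nd6 alone, and -0.06 to 0.00089 with 1 library left out. The difference of the mitochondrial share of FPKM was 0.17 to 1.16 percentage points with 1 library left out. On recovered reads with all libraries it was 0.09. The causes of these changes were not tested. Depth limits mt-Atp8, mt-Nd4l and mt-Nd3, with at most 95 reads per library.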
